A study of Homo sapiens with 30 samples.

Results

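Docosahexaenoic acid (DHA) was set against oleic acid in LX2 cells that received no betacellulin (BTC). LX2 is an immortalised human cell line derived from stellate cells, which lay down scar matrix in the fibrotic liver. The members were the 5 DHA+Veh and the 5 OLA+Veh libraries, 10 of 30 in all, chosen by their labels and paired by experiment, 1 library of each group in each of 5 experiments. DHA+Veh cells had DHA, an ω3 fatty acid with 22 carbons and 6 double bonds. OLA+Veh cells had oleic acid, an ω9 fatty acid with 18 carbons and 1 double bond. The dose was 50 µM for both, carried by 20 µM albumin. Exposure ran over 2 cycles of 48 h, and 1 protocol field gives 96 h of fatty acid. Both groups then had 72 h in medium with 1% serum and no BTC, and the labels leave it unclear whether the fatty acid stayed in the medium during those 72 h. Veh+Veh cells had neither fatty acid nor BTC, and DHA+BTC and OLA+BTC cells had 20 ng/ml of BTC, a ligand of ErbB receptors, for the 72 h. RNA was read by 3′ tag sequencing, and levels are in CPM, reads of a gene scaled to a library total of 1000000. All libraries come from 1 line. Since no source used here says whether the experiments were separate passages, p-values cover only the spread among these cultures, and fewer cells of a kind cannot be told apart from less RNA per cell. The comparison asks which transcripts differ between 2 unsaturated fatty acids given at the same dose and over the same times, so that fatty acid supply as such is present on both sides.

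As background, long-chain fatty acids bind the PPAR nuclear receptors, which switch on genes of fatty acid handling, and polyunsaturated fatty acids lower the activity of the SREBP factors that switch on sterol and fatty acid synthesis. DHA is rich in double bonds and therefore open to peroxidation, whereas oleic acid is comparatively resistant to it. Stellate cells in culture take on a myofibroblast state with contractile and matrix genes, and they also secrete chemokines and matrix proteases.

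Promoters of 5 genes are shown, which stand for gene groups described below. Their calls held under all 28 alternatives that keep the experiment as a block. A motif match within the 150 bases before the start was also a condition of being shown. They are 2 neutrophil chemokines with a motif of NF-kB and 2 hypoxia targets with the core of the hypoxia response element. The other is a proliferation gene with the motif of the cell cycle homology region. ICAM1, PGK1 and TOP2A kept their calls under the same alternatives and were searched as well. They held the motif of their group in the wider windows of 300 bases but not within those 150 bases, and are not shown. Each sequence holds the 150 bases before the RefSeq gene start (GRCh38.p14), 5′ to 3′ on the strand of the gene, and the capitals mark the motif found.
CXCL8, chr4:73740419-73740568, plus strand: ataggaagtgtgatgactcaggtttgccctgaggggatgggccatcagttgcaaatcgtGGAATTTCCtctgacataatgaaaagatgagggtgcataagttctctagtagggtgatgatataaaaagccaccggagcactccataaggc
CXCL1, chr4:73869243-73869392, plus strand: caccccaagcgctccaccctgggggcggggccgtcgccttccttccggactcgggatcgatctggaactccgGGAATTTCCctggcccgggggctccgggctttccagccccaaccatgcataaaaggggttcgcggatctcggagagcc
DDIT4, chr10:72273774-72273923, plus strand: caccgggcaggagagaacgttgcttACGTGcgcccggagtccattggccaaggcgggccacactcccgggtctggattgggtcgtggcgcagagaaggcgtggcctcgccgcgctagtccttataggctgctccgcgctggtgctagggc
BNIP3, chr10:131981924-131982073, minus strand: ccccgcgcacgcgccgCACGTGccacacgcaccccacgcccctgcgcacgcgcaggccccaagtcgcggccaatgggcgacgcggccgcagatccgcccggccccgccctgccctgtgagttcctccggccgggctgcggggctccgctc
MKI67, chr10:128126424-128126573, minus strand: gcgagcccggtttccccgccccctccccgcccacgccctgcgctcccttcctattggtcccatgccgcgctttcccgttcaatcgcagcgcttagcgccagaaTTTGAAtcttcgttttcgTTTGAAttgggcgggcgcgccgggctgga
The motif GGAATTTCC, or GGAAATTCC on the other strand, lay 91 to 83 bases before the start of CXCL8 and 78 to 70 bases before that of CXCL1. In windows of 300 bases around RefSeq starts it was found in 162 of 35116 (0.461%), and in 69 of the 10861 tested genes that have such a window (0.635%). Of 31 tested chemokine, cytokine and NF-kB genes, 25 had a window and 10 of these held the motif, namely CXCL1, CXCL2, CXCL3, CXCL5, CXCL6, CXCL8, ICAM1, NFKB1, NFKBIA and NFKBIZ. ACGTG, searched on both strands, was found in 32.0% of the tested genes with a window, in 13 of 20 glycolysis genes and in 7 of 12 hypoxia genes. In BNIP3 the matches on the 2 strands overlap. TTTGAA, also searched on both strands, was found in 13.5% of the tested genes with a window and in 11 of 18 mitosis genes, among them MKI67 with 2 matches and TOP2A. TCACCCCAC, searched likewise, is a form of the sterol response element and was found in 0.516% of the tested genes with a window and in 1 of 17 genes of cholesterol synthesis and uptake. Of called list members with a window, 5 of 10 chemokine, cytokine and NF-kB genes held the motif of their group. So did 4 of 6 glycolysis, 3 of 3 hypoxia, 3 of 4 mitosis and 0 of 3 cholesterol genes. These motifs were chosen after the differences were known, and a match describes letters in a window and not a bound site.

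The 30 libraries held 1245182 to 9490142 reads. DHA+Veh libraries held 1538581 to 4703635 reads and OLA+Veh libraries 3100482 to 5012722, and the shallowest of the 10 was DHA+Veh 5, where 3 reads, the most that a count of 0 allows, make 1.95 CPM. Such limits take in counting error alone, since reads may be PCR copies of 1 molecule. The 10 most abundant genes took 9.42 ± 2.05% of reads in DHA+Veh and 7.95 ± 1.85% in OLA+Veh (SD, n = 5 each), higher with DHA in 5 of 5 experiments (exact two-sided sign-flip permutation p = 0.0625, the smallest that 5 pairs allow; adjusted p = 0.234 over 5 library measures). Mesenchymal markers were present (11 of 12 detected in each group, with summed levels of 875 to 2578 CPM in DHA+Veh and 826 to 2390 CPM in OLA+Veh), although DES, a defining marker of stellate cells in rodents, was at 0 in all 10 libraries. The median of these sums was lower with DHA, at 1188 CPM against 1958 CPM with oleic acid. Of 11 tested mesenchymal markers 2 had a positive and 9 a negative difference on the CPM scale. Their median was -0.54, or -0.36 with quantile normalization, against -0.15 over all genes on the CPM scale. The surface protein THY1 alone was called, as a fall (9.09% of the list, against 3.27% of all genes). Of 9 hepatocyte markers none reached testing, and ALB and TTR were at 0 in both groups, as were the lymphocyte markers CD3E and MS4A1. Among the markers of other cell types, the keratin KRT18 fell (log2 difference -1.05, limma adjusted p = 0.00595), a call that held without any 1 library and ended without experiment 4 or 5 (adjusted p = 0.0549 to 0.0629). It was the 1 call among 7 tested epithelial markers (1 positive and 6 negative differences on the CPM scale, median -0.31). The positive one was CDH1, E-cadherin, at 19.8, 35.2, 25.4, 149 and 31.2 CPM in DHA+Veh 1 to 5, against 11.3, 14.7, 11.6, 14.6 and 9.68 CPM in OLA+Veh 1 to 5. All DHA+Veh libraries lay above all OLA+Veh libraries, DHA+Veh 4 by far the highest, and CDH1 did not pass (log2 difference 1.58, 95% interval 0.53 to 2.63; limma adjusted p = 0.0817). Of 5 tested leukocyte and macrophage markers 3 had a positive and 2 a negative difference on the CPM scale (median 0.36, or 0.51 with quantile normalization), and CD14 alone was called, as a fall (log2 difference -1.43, limma adjusted p = 0.0242), which ended without DHA+Veh 4, DHA+Veh 5, OLA+Veh 1, OLA+Veh 4 or OLA+Veh 5 (adjusted p = 0.0574 to 0.129). Epithelial markers summed to 125 to 363 CPM in DHA+Veh and 198 to 649 CPM in OLA+Veh, and leukocyte markers to 16.8 to 43.9 CPM and 16.2 to 49.7 CPM in the same groups. With all libraries thinned to equal depth 309 genes were called (101 rises and 208 falls), 276 of them among the 495 called at full depth. The part of these markers in the results was not tested.

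Of 15137 genes tested, 495 (3.27%) differed at a limma adjusted p under 0.05, and the falls outnumbered the rises: 135 genes (0.892%) rose with DHA and 360 (2.38%) fell. By log2 difference the 5 largest rises were those of the chemokine CXCL8, the cytokine CSF3, the chemokine CXCL1, the lipase inhibitor ANGPTL4 and the protease inhibitor TFPI2, and the 3 largest falls those of the carboxypeptidase CPA4, the receptor KIT and the cofactor VGLL2. All differences are of log2(CPM + 1), so that changes of genes near 0 are understated. A size of 1 log2 unit or more was reached by 99 of the rises and 211 of the falls. All 5 experiments had the same sign for 448 of the 495 genes. The genes were called on these same differences within experiments, so that count describes them and is no test. In 25 of the rises and 32 of the falls the 2 groups did not overlap at all, against 134 of all genes tested (0.885%; 0.291% above and 0.595% below).

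**Figure D1:**
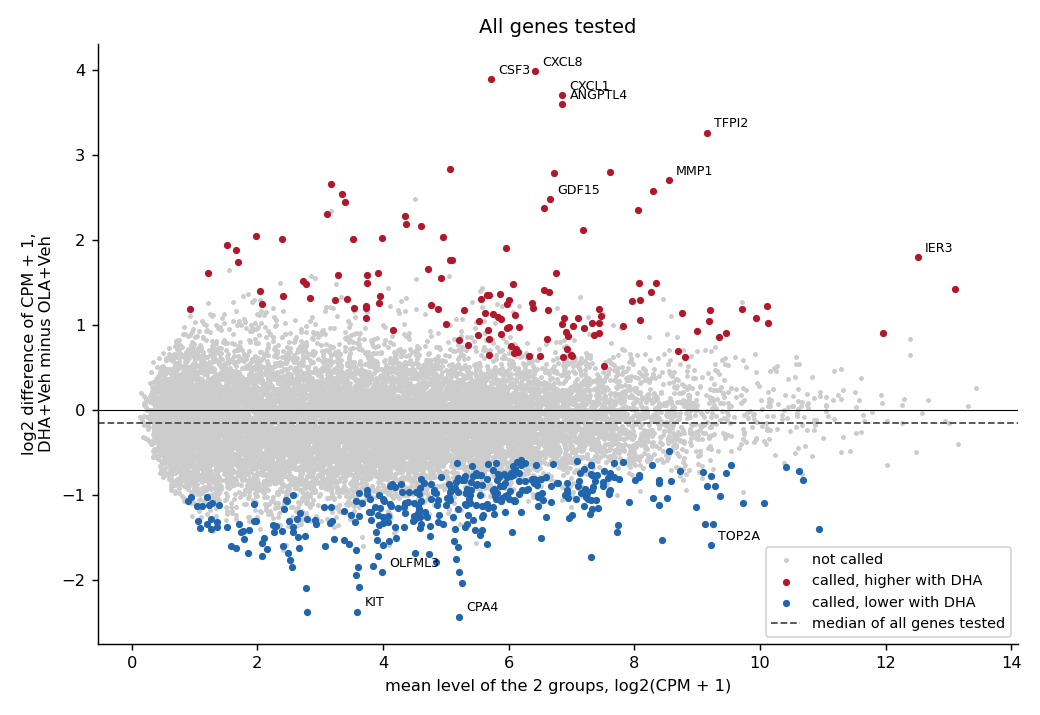
Log2 difference of CPM + 1, DHA+Veh minus OLA+Veh (vertical axis), against the mean level of both groups as log2(CPM + 1) (horizontal axis) for 15137 genes. Red points are the 135 genes called higher and blue points the 360 called lower with DHA by limma, grey points were not called, and the dashed line is the median of all genes tested, -0.15.

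The split between rises and falls moved with the scaling. The median of all genes was -0.15 on the CPM scale, -0.09 after median-of-ratios scaling and -0.01 after quantile normalization. The rises and falls numbered 164 and 274 after the first of these and 178 and 210 after quantile normalization. Differences below are on the CPM scale, and every called gene named lies farther from 0 than that shift. The count rested on a few libraries: 290 genes were called without DHA+Veh 4, 158 without DHA+Veh 5, 292 without OLA+Veh 3, 213 without OLA+Veh 4 and 157 without OLA+Veh 5, and 77 (31 rises and 46 falls) without both libraries of experiment 5. Leaving out every library of experiment 3, 4 or 5 gave 136, 129 and 129. A call said below to end without single libraries could also end without a whole experiment, which is given for some genes only. A fit that leaves out the experiment term called ANGPTL4 and OLFML3 and no other (2 in all), so every other call named here rests on the pairing within experiments. Under all 28 alternatives that keep the block 50 genes stayed called, 26 rises and 24 falls. For each gene list below, the percentage is the share of its tested members called in either direction. It stands beside 3.27% of all genes tested (0.892% rises and 2.38% falls), and the median of a list beside -0.15 for all genes. The lists were chosen with earlier results of these data known, so their shares and medians describe them and are no test.

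**Figure D2:**
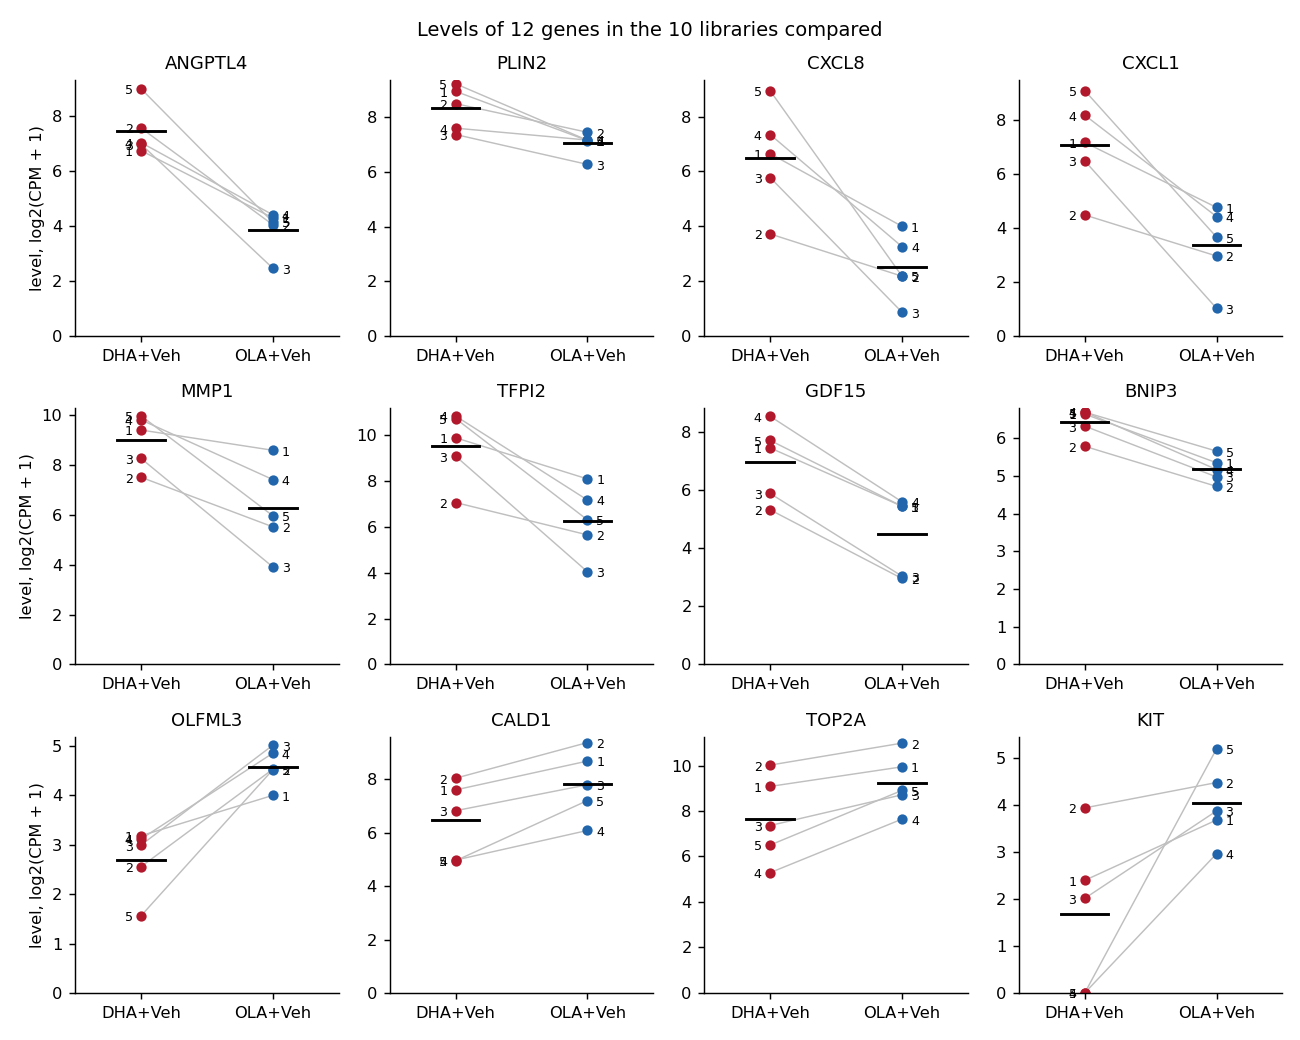
Levels as log2(CPM + 1) (vertical axes) of 12 genes in DHA+Veh (red, left) and OLA+Veh (blue, right) libraries, with the experiment number at each point, grey lines joining libraries of 1 experiment and black bars at the group means. ANGPTL4, BNIP3 and OLFML3 had no overlap between the groups, and in each of the 12 genes all 5 lines slope the same way.

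Lipid handling was led by 2 genes. ANGPTL4, a secreted inhibitor of lipoprotein lipase and a classical PPAR target, had 107, 190.3, 126, 132 and 515 CPM in DHA+Veh 1 to 5, against 18.8, 15.6, 4.54, 20.3 and 16.8 CPM in OLA+Veh 1 to 5. Every DHA+Veh library lay above every OLA+Veh library, and DHA+Veh 5 stood highest. The difference was 3.60 log2 units, or 12.1-fold in CPM + 1 (95% interval 2.68 to 4.52 log2 units, limma adjusted p = 4.6e-05), and its call held under all 29 alternatives. PLIN2, the coat protein of lipid droplets, had 496, 362, 165, 194 and 601 CPM in DHA+Veh 1 to 5, against 141, 175, 76.8, 143 and 143 CPM in OLA+Veh 1 to 5. DHA was higher in all 5 experiments, with the groups overlapping narrowly between DHA+Veh 3 and OLA+Veh 2. PLIN2 differed by 1.29 log2 units (95% interval 0.72 to 1.86; limma adjusted p = 0.00912). The PLIN2 call ended without DHA+Veh 5 (adjusted p = 0.0547) and without experiment 5 (adjusted p = 0.0886). UCP2, a mitochondrial carrier of the inner membrane, went down: it had 20.0, 30.0, 25.4, 34.4 and 8.45 CPM in DHA+Veh 1 to 5, against 31.3, 51, 105, 59 and 68.1 CPM in OLA+Veh 1 to 5. OLA+Veh 1 alone of the oleic acid libraries reached into the DHA range, and DHA was lower in all 5 experiments. UCP2 differed by -1.4 log2 units (95% interval -1.93 to -0.87; limma adjusted p = 0.00303). These 2 genes, ANGPTL4 and UCP2, were the only 2 called of 23 tested PPAR and fatty acid oxidation genes (8.70%), whose median was -0.16 against -0.15 over all genes. CPT1A, the carnitine palmitoyltransferase of mitochondrial import, averaged 447 ± 185 CPM in DHA+Veh and 296 ± 105 CPM in OLA+Veh (SD, n = 5 each) and did not pass. CPT1A differed by 0.55 log2 units (95% interval 0.12 to 0.97; limma adjusted p = 0.139). Of 16 lipid droplet and triglyceride genes, 2 rose and 1 fell (18.8%; median -0.05, or 0.06 with quantile normalization). Beside PLIN2 these were G0S2, an inhibitor of the triglyceride lipase ATGL, and LPIN1, a phosphatidate phosphatase (-0.65). G0S2 averaged 152 ± 88.9 CPM in DHA+Veh and 34.8 ± 31.7 CPM in OLA+Veh (SD, n = 5 each; log2 difference 2.38, limma adjusted p = 0.0438), a call that ended without any 1 library other than DHA+Veh 1, DHA+Veh 2 and OLA+Veh 1 (adjusted p = 0.0553 to 0.163). That of LPIN1 (adjusted p = 0.0455) ended without any 1 library other than DHA+Veh 5 and OLA+Veh 1 (adjusted p = 0.0561 to 0.126). Of 8 tested lipid receptors and carriers 0 were called by limma, edgeR or DESeq2 (1 at an unadjusted p under 0.05), with PPARA at -0.29 with 95% interval -0.83 to 0.26 log2 units and PPARD at 0.32 with 95% interval -0.75 to 1.39.

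Some genes of sterol and fatty acid synthesis fell with DHA, and none of either list rose. Of 24 tested genes of cholesterol synthesis and uptake, 0 rose and 5 fell (20.8%, against 3.27% of all genes), 22 had a negative difference and the median was -0.57, against -0.15 over all genes. HMGCS1, which makes the HMG-CoA of the sterol pathway, had 904, 828, 141, 95.3 and 80.6 CPM in DHA+Veh 1 to 5, against 1019, 1262, 549, 298 and 402 CPM in OLA+Veh 1 to 5. Both groups were highest in experiments 1 and 2, and DHA was lower in each experiment. HMGCS1 differed by -1.34 log2 units (95% interval -1.88 to -0.79; limma adjusted p = 0.00482). The call held without any 1 library and ended without experiment 3 or 5 (adjusted p = 0.0604 to 0.0746). MVK, mevalonate kinase, had groups that did not overlap, at 99.8 ± 31.5 CPM in DHA+Veh and 242 ± 143 CPM in OLA+Veh (SD, n = 5 each; log2 difference -1.15 ± 0.28, SE; limma adjusted p = 0.0193), and lost its call without DHA+Veh 3, DHA+Veh 4, DHA+Veh 5, OLA+Veh 3 or OLA+Veh 4 (adjusted p = 0.0506 to 0.0822). EBP (-0.61) and ACAT2 (-0.74) fell as well, with calls that ended without any 1 library other than DHA+Veh 1, DHA+Veh 2, OLA+Veh 1 and OLA+Veh 2 (adjusted p = 0.0638 to 0.155) for EBP and any 1 library other than DHA+Veh 1, DHA+Veh 2 and OLA+Veh 1 (adjusted p = 0.0501 to 0.167) for ACAT2. With both libraries of experiment 5 left out 0 of the 24 genes were called.

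Of 22 tested genes of fatty acid synthesis, desaturation and elongation, 0 rose and 4 fell (18.2%), with a median of -0.33. SCD, the stearoyl-CoA desaturase that makes oleic acid, had 559.8, 489.9, 222, 260.2 and 151 CPM in DHA+Veh 1 to 5, against 911, 595, 661, 567 and 620.2 CPM in OLA+Veh 1 to 5. All DHA+Veh libraries were below all OLA+Veh libraries. SCD differed by -1.14 log2 units (95% interval -1.71 to -0.57; limma adjusted p = 0.0201), and the call ended without DHA+Veh 4, DHA+Veh 5, OLA+Veh 3 or OLA+Veh 5 (adjusted p = 0.0565 to 0.096). Veh+Veh cells averaged 1013 ± 384 CPM of SCD (SD, n = 5), above the mean of either group. FADS2, the desaturase at the head of polyunsaturated fatty acid synthesis, averaged 86.5 ± 63.7 CPM in DHA+Veh and 160.0 ± 28.1 CPM in OLA+Veh (SD, n = 5 each; log2 difference -1.26, limma adjusted p = 0.0468, lower in 4 of 5 experiments), and its call ended without any 1 library other than DHA+Veh 1, DHA+Veh 2 and OLA+Veh 4 (adjusted p = 0.0513 to 0.21). With both libraries of experiment 5 left out 0 of the 22 were called. ELOVL2, which elongates polyunsaturated fatty acids, averaged 11.1 ± 11.3 CPM in DHA+Veh and 21.8 ± 11.5 CPM in OLA+Veh (SD, n = 5 each; log2 difference -1.13, limma adjusted p = 0.0185), and lost its call without DHA+Veh 5, OLA+Veh 3 or OLA+Veh 5 (adjusted p = 0.0548 to 0.0948). ACACA, acetyl-CoA carboxylase, fell by 0.62 log2 units (limma adjusted p = 0.0475) and was not called when any 1 of the 10 libraries was left out (adjusted p = 0.0597 to 0.116). FADS1, another desaturase of polyunsaturated fatty acids, did not pass (log2 difference -0.31 with 95% interval -0.62 to 0.01). Of 9 sterol efflux and LXR target genes 0 were called by limma, edgeR or DESeq2 (2 at an unadjusted p under 0.05), with ABCA1 at 0.40 with 95% interval -0.40 to 1.2.

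Chemokines and cytokines were among the largest rises. The list of chemokines, cytokines and NF-kB targets had 31 tested members. Of these 10 rose and 1 fell (35.5%, against 3.27% of all genes), and 29 had a positive difference, with a median of 1.17. CXCL8, interleukin 8, whose promoter is printed above, had 99.5, 12.2, 53.9, 162 and 491 CPM in DHA+Veh 1 to 5, against 15, 3.53, 0.825, 8.58 and 3.55 CPM in OLA+Veh 1 to 5. The lowest DHA library, DHA+Veh 2, lay below OLA+Veh 1, and within every experiment DHA was higher. The difference was 3.99 log2 units, or 15.9-fold in CPM + 1 (95% interval 2.67 to 5.31 log2 units, limma adjusted p = 0.000559). The added 1 CPM lowers this estimate, and on recovered reads edgeR gave 4.65 and DESeq2 4.73 log2 units. CXCL1, a related neutrophil chemokine, had 142, 21.3, 88.1, 287 and 539 CPM in DHA+Veh 1 to 5, against 26, 6.77, 1.03, 20.3 and 11.6 CPM in OLA+Veh 1 to 5. Here too DHA+Veh 2 was the lowest of its group and overlapped with OLA+Veh 1, and DHA was higher in 5 of 5 experiments. CXCL1 differed by 3.71 log2 units (95% interval 2.61 to 4.81; limma adjusted p = 0.000168). ICAM1, the adhesion molecule that holds leukocytes, had 84.4, 39, 66, 96.6 and 119 CPM in DHA+Veh 1 to 5, against 54.7, 19.1, 10.1, 45.7 and 39 CPM in OLA+Veh 1 to 5. Its groups overlapped because DHA+Veh 2 lay below OLA+Veh 1 and 4, with all 5 experiments positive. ICAM1 differed by 1.37 log2 units (95% interval 0.85 to 1.89; limma adjusted p = 0.00303). The calls of CXCL8, CXCL1 and ICAM1 held without any 1 library and without any 1 experiment.

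Other cytokine calls were less stable. IL1B, interleukin 1 beta, had 222, 27.9, 159, 312 and 206 CPM in DHA+Veh 1 to 5, against 51.2, 16.2, 9.9, 17 and 22.9 CPM in OLA+Veh 1 to 5. DHA+Veh 2 stood apart below the other DHA libraries. IL1B differed by 2.79 log2 units (95% interval 1.55 to 4.03; limma adjusted p = 0.00933). The call ended without DHA+Veh 5 (adjusted p = 0.0556) and without experiment 3 or 4 (adjusted p = 0.0909 to 0.0993). CSF3, the granulocyte colony-stimulating factor, was at 0 in DHA+Veh 2 and in OLA+Veh 1, 2 and 5, and reached 429.6 CPM in DHA+Veh 5 (log2 difference 3.9, limma adjusted p = 0.00762). It lost its call without DHA+Veh 5 (adjusted p = 0.0551) and without experiment 3, 4 or 5 (adjusted p = 0.0504 to 0.0539). TNFAIP6, a hyaluronan-binding secreted protein, averaged 17.1 ± 20.5 CPM in DHA+Veh and 1.15 ± 1.33 CPM in OLA+Veh (SD, n = 5 each; log2 difference 2.55, limma adjusted p = 0.0127) and was not called without DHA+Veh 5 or OLA+Veh 5 (adjusted p = 0.0585 to 0.0782). IL24 (2.66; call ended without DHA+Veh 4, DHA+Veh 5, OLA+Veh 4 or OLA+Veh 5, adjusted p = 0.06 to 0.112), NFKBIZ (1.5; without DHA+Veh 5, OLA+Veh 3, OLA+Veh 4 or OLA+Veh 5, adjusted p = 0.0578 to 0.113), IRAK2 (1.3; without any 1 library other than DHA+Veh 1, DHA+Veh 2 and OLA+Veh 2, adjusted p = 0.0667 to 0.155) and NFKBIA (0.92; without any 1 library other than DHA+Veh 2 and DHA+Veh 4, adjusted p = 0.0524 to 0.181) completed the rises. NFKBIA encodes the inhibitor that holds NF-kB in the cytoplasm, and NFKBIZ a nuclear relative of it. CXCL12, the homeostatic chemokine that attracts cells through CXCR4, went the other way, with 86.1, 168, 42.7, 33.4 and 103 CPM in DHA+Veh 1 to 5, against 169, 229, 92, 96.4 and 186 CPM in OLA+Veh 1 to 5. DHA was lower in each experiment while the groups overlapped. CXCL12 differed by -0.97 log2 units (95% interval -1.35 to -0.59; limma adjusted p = 0.00369), and the call ended without experiment 4 (adjusted p = 0.06). CXCL3 and CXCL2 did not pass (log2 differences 2.49 with 95% interval 1.0 to 3.97 and 2.34 with 95% interval 0.95 to 3.73; adjusted p = 0.052 and 0.0503), nor did CCL2 (1.4 with 95% interval 0.15 to 2.65) or IL6 (1.41 with 95% interval 0.38 to 2.44). With both libraries of experiment 5 left out 3 of the 31 rose and 1 fell.

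ZC3H12A, TNIP1 and TNFSF15, outside the list and named after their values were seen because they kept their call under every alternative with the block, also rose. ZC3H12A, an RNase that degrades inflammatory transcripts, averaged 249 ± 249.8 CPM in DHA+Veh and 41.6 ± 25.3 CPM in OLA+Veh (SD, n = 5 each; log2 difference 2.12 ± 0.35, SE; limma adjusted p = 0.000653). TNIP1, a partner of the NF-kB inhibitor A20, averaged 397 ± 279 CPM in DHA+Veh and 148 ± 59.1 CPM in OLA+Veh (SD, n = 5 each; log2 difference 1.3 ± 0.21, SE; limma adjusted p = 0.000559). The cytokine TNFSF15 averaged 31.4 ± 25.3 CPM in DHA+Veh and 7.8 ± 10.7 CPM in OLA+Veh (SD, n = 5 each; log2 difference 2.19 ± 0.32, SE; limma adjusted p = 0.000221). All 3 were higher in 5 of 5 experiments. Of 26 interferon-induced and antigen presentation genes 0 were called by limma, edgeR or DESeq2 (3 at an unadjusted p under 0.05; median -0.01, or 0.06 with median-of-ratios scaling). MX1, an interferon-induced antiviral GTPase, differed by -0.71 with 95% interval -1.43 to 0.01. In the prostaglandin list, 2 of 11 rose (18.2%; median -0.02). PTGES, the inducible prostaglandin E synthase, had 122, 38.7, 53, 224 and 73.4 CPM in DHA+Veh 1 to 5, against 26.8, 37.4, 32, 38.5 and 17.1 CPM in OLA+Veh 1 to 5. The groups stood apart by little, with DHA+Veh 2 just above OLA+Veh 4. PTGES differed by 1.49 log2 units (95% interval 0.68 to 2.3; limma adjusted p = 0.0322). PTGS2, cyclooxygenase 2, reached 45.5 CPM in DHA+Veh 5 and was at 0 in DHA+Veh 2 (log2 difference 2.31, limma adjusted p = 0.0348). The call of PTGES was lost without any 1 library other than DHA+Veh 2, DHA+Veh 3 and OLA+Veh 2 (adjusted p = 0.0585 to 0.107). That of PTGS2 was lost without any 1 library other than DHA+Veh 2, DHA+Veh 3 and OLA+Veh 2 (adjusted p = 0.0543 to 0.164).

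**Figure D3:**
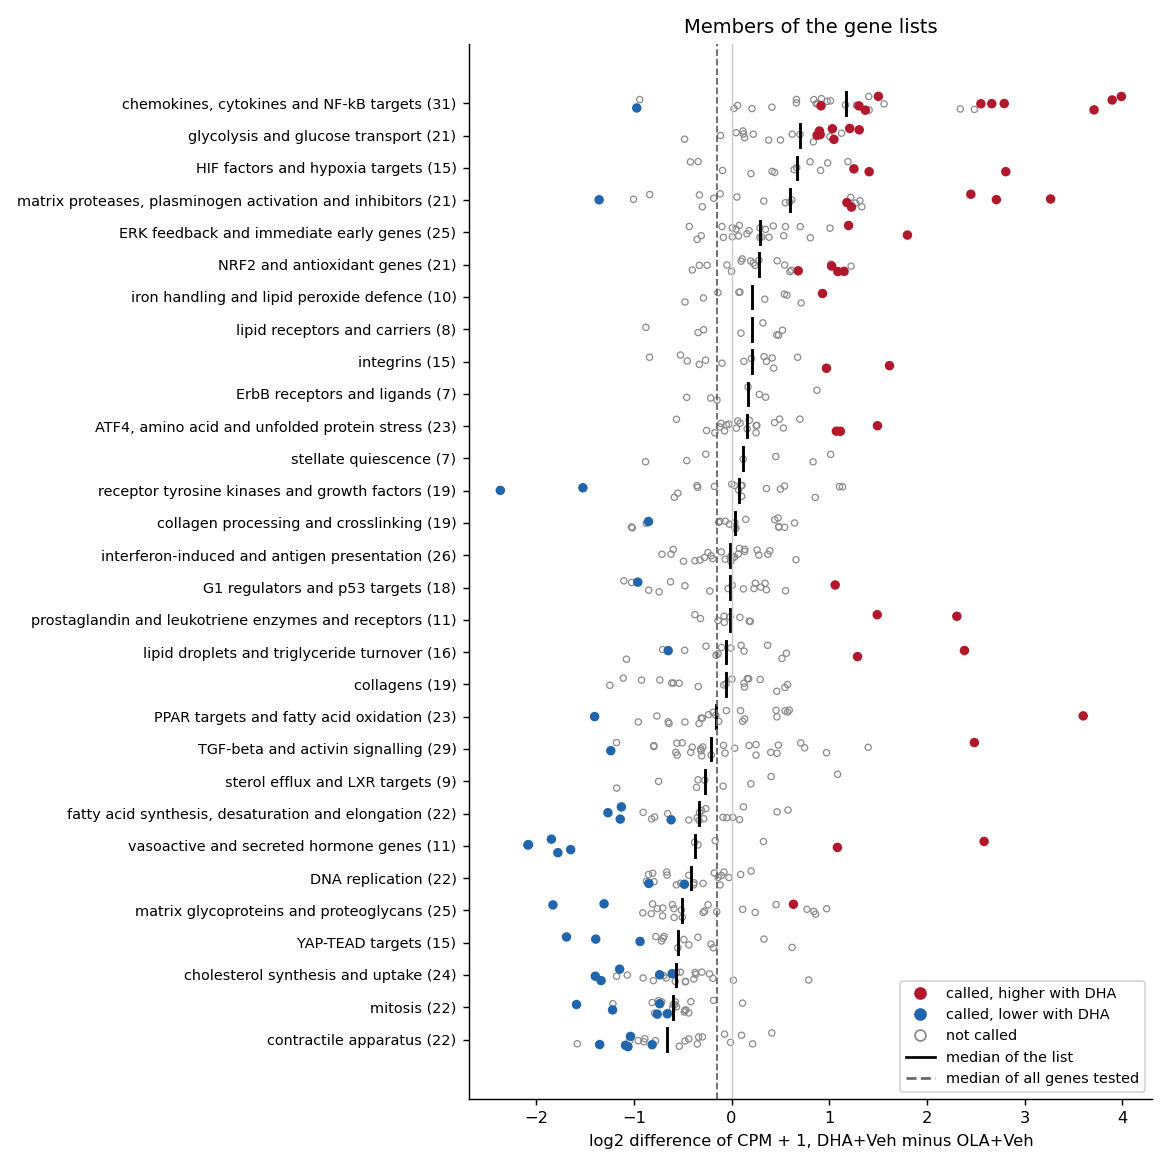
Log2 difference of CPM + 1, DHA+Veh minus OLA+Veh (horizontal axis), of the tested members of 30 gene lists (vertical axis, number tested in brackets). Filled points were called by limma, open points were not, black ticks are list medians and the dashed line is the median of all genes tested; chemokines top the order with a median of 1.17, and contractile genes end it with -0.66.

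Both matrix-degrading enzymes and inhibitors of proteases were among the rises. Of 21 tested proteases, plasminogen activators and inhibitors, 5 rose and 1 fell (28.6%, against 3.27% of all genes), with a median of 0.60. With both libraries of experiment 5 left out 3 rose and 0 fell. MMP1, the interstitial collagenase, had 674, 180.5, 305, 894 and 1001 CPM in DHA+Veh 1 to 5, against 383, 44.8, 14, 169 and 61.3 CPM in OLA+Veh 1 to 5. OLA+Veh 1 was above DHA+Veh 2 and 3, and within each experiment DHA was higher. MMP1 differed by 2.71 log2 units (95% interval 1.92 to 3.5; limma adjusted p = 0.000146). TFPI2, an extracellular inhibitor of serine proteases, had 943, 132, 541, 1822 and 1689 CPM in DHA+Veh 1 to 5, against 271, 49.2, 15.5, 143 and 78.1 CPM in OLA+Veh 1 to 5. The rise was smallest in experiment 2 and largest in experiment 3. TFPI2 differed by 3.27 log2 units (95% interval 2.4 to 4.13; limma adjusted p = 4.66e-05). SERPINE2, protease nexin 1, averaged 1477 ± 736 CPM in DHA+Veh and 724 ± 565 CPM in OLA+Veh (SD, n = 5 each). SERPINE2 differed by 1.23 log2 units (95% interval 0.84 to 1.61; limma adjusted p = 0.000329). TIMP1, which inhibits MMP1 and its relatives, averaged 835 ± 431 CPM in DHA+Veh and 342 ± 139 CPM in OLA+Veh (SD, n = 5 each). TIMP1 differed by 1.18 log2 units (95% interval 0.73 to 1.64; limma adjusted p = 0.00307). All of these 4 calls held without any 1 library. TIMP1 lost its call without the libraries of experiment 5 of the 2 groups (adjusted p = 0.0600), and kept it with every library of experiment 5 left out (limma adjusted p = 0.0331). MMP3, stromelysin 1, averaged 17.7 ± 18.7 CPM in DHA+Veh and 1.34 ± 1.77 CPM in OLA+Veh (SD, n = 5 each; log2 difference 2.45, limma adjusted p = 0.0171), and its call ended without DHA+Veh 5, OLA+Veh 4 or OLA+Veh 5 (adjusted p = 0.0503 to 0.1). ADAMTS5, an aggrecanase, fell (-1.35, limma adjusted p = 0.0368), a call lost without any 1 library other than DHA+Veh 1, DHA+Veh 2 and OLA+Veh 1 (adjusted p = 0.0513 to 0.174). PLAUR, the urokinase receptor, did not pass (log2 difference 1.31 with 95% interval 0.49 to 2.14). Among 15 integrins 2 rose (13.3%; median 0.20). ITGA2, the collagen-binding alpha 2 chain, averaged 137 ± 86.5 CPM in DHA+Veh and 75.4 ± 110.4 CPM in OLA+Veh (SD, n = 5 each) and was higher in 4 of 5 experiments. ITGA2 differed by 1.62 log2 units (95% interval 0.93 to 2.31; limma adjusted p = 0.00664). ITGA5, the fibronectin-binding alpha 5 chain, had groups that did not overlap, at 82.5 ± 16.9 CPM in DHA+Veh and 41.3 ± 5.87 CPM in OLA+Veh (SD, n = 5 each). ITGA5 differed by 0.97 log2 units (95% interval 0.52 to 1.43; limma adjusted p = 0.0132). The call of ITGA5 ended without DHA+Veh 4 (adjusted p = 0.0502) and without experiment 3 or 4 (adjusted p = 0.0594 to 0.11). That of ITGA2 ended without experiment 3 or 5 (adjusted p = 0.0757 to 0.087).

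Some genes of glycolysis and of the hypoxia response rose. Of 21 tested genes of glycolysis and glucose transport, 7 rose and 0 fell (33.3%, against 3.27% of all genes), 19 had a positive difference and the median was 0.70. Only 2 of the 21 rose without both libraries of experiment 5. PGK1, phosphoglycerate kinase, had 653, 369, 749.8, 1008 and 1207 CPM in DHA+Veh 1 to 5, against 347, 358, 259.6, 453 and 396 CPM in OLA+Veh 1 to 5. Experiment 2 had nearly equal levels, and the other 4 had higher levels with DHA. PGK1 differed by 1.05 log2 units (95% interval 0.65 to 1.44; limma adjusted p = 0.00283). ENO2, an enolase, averaged 160.3 ± 60.6 CPM in DHA+Veh and 84.5 ± 26.8 CPM in OLA+Veh (SD, n = 5 each). ENO2 differed by 0.88 log2 units (95% interval 0.53 to 1.22; limma adjusted p = 0.00396). SLC2A1, the glucose transporter GLUT1, had 107, 71.1, 86.9, 139.8 and 181 CPM in DHA+Veh 1 to 5, against 47.7, 43, 41.1, 55.3 and 51.3 CPM in OLA+Veh 1 to 5. All DHA+Veh libraries lay above all OLA+Veh libraries, and the OLA+Veh libraries ran from 41.1 to 55.3 CPM. SLC2A1 differed by 1.21 log2 units (95% interval 0.71 to 1.71; limma adjusted p = 0.00544). SLC2A1 was not called without experiment 4 (adjusted p = 0.0534). The other 4 rises were PFKFB4 (1.31), PFKFB3 (1.03), SLC2A3 (0.90) and LDHA (0.91). The call of PFKFB4 ended without any 1 library other than DHA+Veh 1, DHA+Veh 2 and DHA+Veh 3 (adjusted p = 0.0501 to 0.0919). That of PFKFB3 ended without any 1 library other than DHA+Veh 2, DHA+Veh 4 and OLA+Veh 1 (adjusted p = 0.0501 to 0.182). SLC2A3 was no longer called without any 1 library other than DHA+Veh 2, DHA+Veh 4 and OLA+Veh 3 (adjusted p = 0.0547 to 0.164), nor LDHA without any 1 library other than DHA+Veh 2 and OLA+Veh 2 (adjusted p = 0.051 to 0.131).

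Of 15 tested hypoxia-inducible factors and their targets 3 rose and 0 fell (20.0%), with a median of 0.67. BNIP3, a mitophagy receptor, had 98.4, 54, 78.7, 102 and 102 CPM in DHA+Veh 1 to 5, against 39.7, 25.3, 30.3, 34.9 and 49.3 CPM in OLA+Veh 1 to 5. The groups did not overlap, and the 5 experiments differed by similar amounts. BNIP3 differed by 1.25 log2 units (95% interval 0.82 to 1.68; limma adjusted p = 0.000907). DDIT4, an inhibitor of mTORC1 signalling induced by hypoxia and by stress, had 116, 48.4, 85.4, 159.6 and 1415 CPM in DHA+Veh 1 to 5, against 32.4, 13.3, 13.6, 41.3 and 21.9 CPM in OLA+Veh 1 to 5. DHA+Veh 5 was far above the rest, and the other 4 DHA libraries were also above every OLA+Veh library (log2 difference 2.81, 95% interval 1.77 to 3.84; limma adjusted p = 0.00237, or 0.045 as the adjusted p without both libraries of experiment 5). BHLHE40, a circadian repressor, was near the floor, at 4.77 ± 1.18 CPM in DHA+Veh and 1.5 ± 1.68 CPM in OLA+Veh (SD, n = 5 each), and its call (1.41; limma adjusted p = 0.0469) was lost without any 1 library other than OLA+Veh 1 (adjusted p = 0.0554 to 0.167). VEGFA, the vascular growth factor, did not pass (log2 difference 1.19 with 95% interval 0.21 to 2.18).

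Genes of the stress responses that passed all rose. GDF15, a secreted stress cytokine of the TGF-beta family, had 174, 39, 58.1, 372 and 209 CPM in DHA+Veh 1 to 5, against 42.6, 6.77, 7.22, 47.5 and 42.6 CPM in OLA+Veh 1 to 5. Levels varied between experiments in both groups, and the difference within an experiment ran from 2.01 to 2.94 log2 units, with a mean of 2.49 (95% interval 1.89 to 3.08). Its limma adjusted p of 2.2e-05 was the smallest of all genes. Of 21 tested NRF2 and antioxidant genes, 4 rose and 0 fell (19.0%; median 0.28), and 1 rose without both libraries of experiment 5. SQSTM1, the autophagy receptor p62, averaged 1529 ± 816 CPM in DHA+Veh and 703 ± 256 CPM in OLA+Veh (SD, n = 5 each). SQSTM1 differed by 1.02 log2 units (95% interval 0.65 to 1.4; limma adjusted p = 0.00222). HMOX1, heme oxygenase 1, had 102, 115, 179, 231 and 325 CPM in DHA+Veh 1 to 5, against 97.8, 68.9, 60.9, 94.8 and 90.3 CPM in OLA+Veh 1 to 5, so that its groups did not overlap. HMOX1 differed by 1.09 log2 units (95% interval 0.57 to 1.61; limma adjusted p = 0.0151). NQO1, a quinone reductase, also had separate groups, at 86.4 ± 9.01 CPM in DHA+Veh and 53.4 ± 5.69 CPM in OLA+Veh (SD, n = 5 each). NQO1 differed by 0.68 log2 units (95% interval 0.35 to 1.02; limma adjusted p = 0.0174). SLC7A11, the cystine transporter subunit, averaged 64.5 ± 56.4 CPM in DHA+Veh and 31.8 ± 32.4 CPM in OLA+Veh (SD, n = 5 each). SLC7A11 differed by 1.15 log2 units (95% interval 0.61 to 1.69; limma adjusted p = 0.0132). SLC3A2, the chain it pairs with, is not among the 4 rises of the NRF2 and antioxidant list. Of 10 tested genes of iron handling and lipid peroxide defence 1 rose and 0 fell (10.0%, with a median of 0.21). SLC3A2 had separate groups at 157 ± 35.6 CPM in DHA+Veh and 81.3 ± 15.8 CPM in OLA+Veh (SD, n = 5 each). SLC3A2 differed by 0.93 log2 units (95% interval 0.55 to 1.3; limma adjusted p = 0.00466). The calls of SQSTM1 and SLC3A2 held without any 1 library, whereas that of HMOX1 ended without DHA+Veh 4, DHA+Veh 5 or OLA+Veh 5 (adjusted p = 0.0513 to 0.0816). NQO1 lost its call without DHA+Veh 3, DHA+Veh 4 or OLA+Veh 5 (adjusted p = 0.0558 to 0.0591). It also lost it without experiment 2, 3, 4 or 5 (adjusted p = 0.056 to 0.127). SLC7A11 was not called without DHA+Veh 5 (adjusted p = 0.0569) or without experiment 3 or 4 (adjusted p = 0.0755 to 0.0889). Of 23 genes of the ATF4 and unfolded protein responses 3 rose and 0 fell (13.0%; median 0.16). CEBPB, a stress- and cytokine-induced factor, averaged 472 ± 199 CPM in DHA+Veh and 176 ± 95.5 CPM in OLA+Veh (SD, n = 5 each). CEBPB differed by 1.49 log2 units (95% interval 0.88 to 2.11; limma adjusted p = 0.00549). PPP1R15A, which restores translation after stress, had separate groups at 250.4 ± 187 CPM in DHA+Veh and 102 ± 29 CPM in OLA+Veh (SD, n = 5 each). PPP1R15A differed by 1.11 log2 units (95% interval 0.67 to 1.55; limma adjusted p = 0.00371). DDIT3, the factor CHOP, averaged 81.1 ± 51.6 CPM in DHA+Veh and 35.2 ± 12.5 CPM in OLA+Veh (SD, n = 5 each). DDIT3 differed by 1.07 log2 units (95% interval 0.64 to 1.51; limma adjusted p = 0.00452). All 3 were higher in 5 of 5 experiments, and their calls held without any 1 library. None was called without both libraries of experiment 5 (adjusted p = 0.055 for CEBPB, 0.067 for PPP1R15A and 0.078 for DDIT3). With every library of experiment 5 left out all 3 were called (limma adjusted p = 0.0195, 0.011 and 0.0491 in the same order). Without experiment 3 the calls of CEBPB and DDIT3 ended (limma adjusted p = 0.0688 and 0.0539). ATF4 itself did not pass. ATF4 differed by 0.70 log2 units (95% interval 0.16 to 1.23; limma adjusted p = 0.135).

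Few immediate early genes and G1 regulators were called. Of 25 tested ERK feedback and immediate early genes 2 rose and 0 fell (8.0%, against 3.27% of all genes; median 0.29). IER3, an early-response survival gene, averaged 9327 ± 5606 CPM in DHA+Veh and 2359 ± 902 CPM in OLA+Veh (SD, n = 5 each). IER3 differed by 1.8 log2 units (95% interval 1.24 to 2.36; limma adjusted p = 0.000329). PHLDA1 averaged 224 ± 86.8 CPM in DHA+Veh and 123 ± 111 CPM in OLA+Veh (SD, n = 5 each; log2 difference 1.2, 95% interval 0.74 to 1.66; limma adjusted p = 0.00307) and was not called without experiment 3 (adjusted p = 0.0518). Of 18 G1 regulators and p53 targets 2 were called (11.1%; median -0.01). CDKN1A, the cyclin-dependent kinase inhibitor p21, rose, at 370.2 ± 224 CPM in DHA+Veh and 175 ± 106 CPM in OLA+Veh (SD, n = 5 each). CDKN1A differed by 1.06 log2 units (95% interval 0.62 to 1.5; limma adjusted p = 0.00561), with a call lost without experiment 4 (adjusted p = 0.0541). CDKN2C, the inhibitor p18, fell (-0.96, limma adjusted p = 0.0309; call lost without any 1 library other than DHA+Veh 1, DHA+Veh 2, OLA+Veh 2 and OLA+Veh 4, adjusted p = 0.0592 to 0.16).

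**Figure D4:**
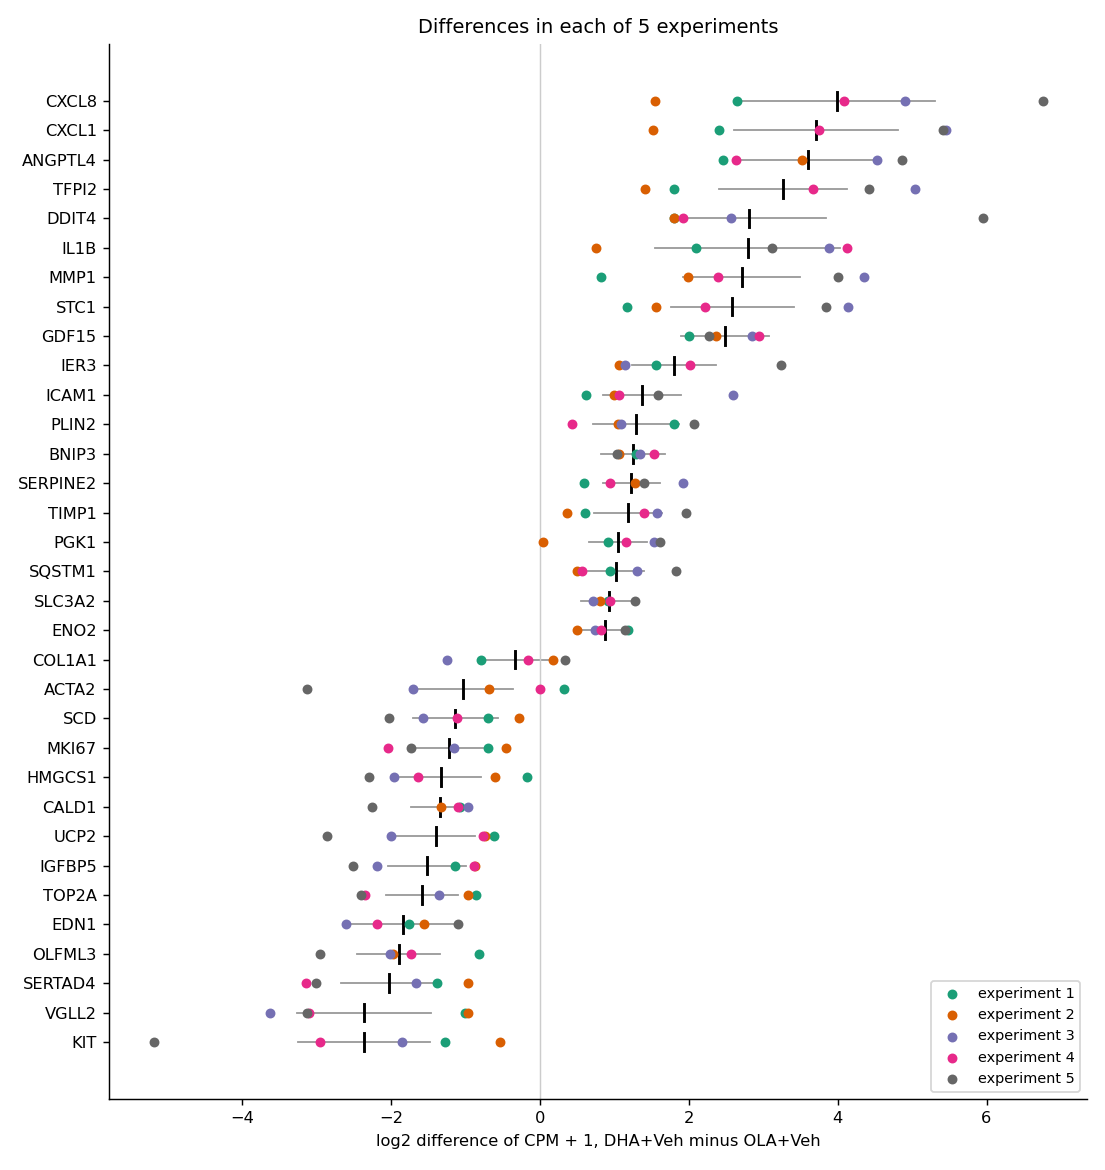
Log2 difference of CPM + 1, DHA+Veh minus OLA+Veh (horizontal axis), of 33 genes (vertical axis) in each of 5 experiments (coloured points), with the mean (black tick) and its 95% interval from the limma fit (grey line). The rises of CXCL8 ran from 1.54 in experiment 2 to 6.76 in experiment 5, those of GDF15 from 2.01 in experiment 1 to 2.94 in experiment 4, and the collagen COL1A1 and the actin ACTA2, which were not called, had experiments on both sides of 0.

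Some contractile genes fell with DHA. Of 22 tested genes of the contractile apparatus, 0 rose and 5 fell (22.7%, against 3.27% of all genes), 19 had a negative difference and the median was -0.66. Without both libraries of experiment 5, 1 of the 22 fell. CALD1, caldesmon, which regulates actin-myosin interaction, had 193, 262, 112, 30.4 and 29.9 CPM in DHA+Veh 1 to 5, against 409.9, 663, 221, 66.8 and 146 CPM in OLA+Veh 1 to 5. DHA was lower in each experiment, and both groups were highest in experiment 2. CALD1 differed by -1.35 log2 units (95% interval -1.73 to -0.97; limma adjusted p = 0.000133), and the call held without any 1 library or experiment. TAGLN, transgelin, averaged 216 ± 193 CPM in DHA+Veh and 520.5 ± 638 CPM in OLA+Veh (SD, n = 5 each; log2 difference -1.03 ± 0.25, SE; limma adjusted p = 0.0214), and lost its call without DHA+Veh 3, DHA+Veh 5, OLA+Veh 3 or OLA+Veh 5 (adjusted p = 0.0573 to 0.108). MYL9, a myosin light chain (-1.08), CNN1, calponin (-1.06), and PDLIM5 (-0.81) fell with calls that ended without any 1 library other than DHA+Veh 2, DHA+Veh 4 and OLA+Veh 2 (adjusted p = 0.0704 to 0.168) for MYL9, any 1 library other than DHA+Veh 2, OLA+Veh 2 and OLA+Veh 5 (adjusted p = 0.073 to 0.164) for CNN1 and DHA+Veh 4, OLA+Veh 4 or OLA+Veh 5 (adjusted p = 0.0503 to 0.09) for PDLIM5. ACTA2, the smooth muscle actin that marks activated stellate cells, had 42.7, 26.8, 46.9, 40.2 and 13.6 CPM in DHA+Veh 1 to 5, against 34, 43.9, 156, 40.1 and 128 CPM in OLA+Veh 1 to 5. DHA was lower in 3 experiments and higher in 2, and the gene did not pass. ACTA2 differed by -1.04 log2 units (95% interval -1.72 to -0.36; limma adjusted p = 0.0753). Of 15 YAP-TEAD targets 0 rose and 3 fell (20.0%; median -0.55). ANKRD1, a muscle ankyrin repeat protein, averaged 11.1 ± 7.84 CPM in DHA+Veh and 40.2 ± 39.3 CPM in OLA+Veh (SD, n = 5 each). ANKRD1 differed by -1.69 log2 units (95% interval -2.41 to -0.97; limma adjusted p = 0.00679). VGLL3, a TEAD cofactor, averaged 22.1 ± 23.3 CPM in DHA+Veh and 46.8 ± 36.6 CPM in OLA+Veh (SD, n = 5 each). VGLL3 differed by -1.39 log2 units (95% interval -1.97 to -0.81; limma adjusted p = 0.00561). Both were lower in 5 of 5 experiments. ANKRD1 was not called without experiment 3 or 4 (adjusted p = 0.0648 to 0.0861), nor VGLL3 without experiment 3 or 5 (adjusted p = 0.0523 to 0.0753). CCN2, connective tissue growth factor, fell, and was lower in 4 of 5 experiments. CCN2 differed by -0.94 log2 units (95% interval -1.48 to -0.39; limma adjusted p = 0.0468), a call lost without any 1 library other than DHA+Veh 2 and OLA+Veh 2 (adjusted p = 0.0647 to 0.168).

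Fibrillar collagens did not pass in either direction. Of 19 tested collagens 0 were called by limma (6 at an unadjusted p under 0.05; median -0.06, or 0.02 with median-of-ratios scaling and 0.04 with TMM), 0 by edgeR and 2 falls by DESeq2. COL1A1 had 465, 1599, 280.3, 329.8 and 1448 CPM in DHA+Veh 1 to 5, against 807, 1415, 671, 370.5 and 1146 CPM in OLA+Veh 1 to 5. Which fatty acid was higher varied between experiments, and the interval of -0.80 to 0.12 log2 units leaves differences in both directions possible. COL1A1 differed by -0.34 log2 units (95% interval -0.80 to 0.12; limma adjusted p = 0.44). COL1A2 averaged 16.2 ± 9.27 CPM in DHA+Veh and 38 ± 23.2 CPM in OLA+Veh (SD, n = 5 each; log2 difference -1.11, 95% interval -1.97 to -0.25; limma adjusted p = 0.139; lower in 5 of 5 experiments) and COL3A1 141 ± 133 CPM in DHA+Veh and 198 ± 132 CPM in OLA+Veh (SD, n = 5 each). COL3A1 differed by -0.54 log2 units (95% interval -1.09 to 0.02; limma adjusted p = 0.289). Of 19 collagen processing genes only LOXL1, a lysyl oxidase that crosslinks elastin and collagen, was called (5.26% of the list, against 3.27% of all genes; -0.86, limma adjusted p = 0.0391; lost without any 1 library other than DHA+Veh 2 and OLA+Veh 2, adjusted p = 0.0642 to 0.142). Of 25 matrix glycoproteins and proteoglycans 1 rose and 2 fell (12.0%; median -0.50). MATN2, matrilin 2, averaged 6.44 ± 7.67 CPM in DHA+Veh and 20.2 ± 15.5 CPM in OLA+Veh (SD, n = 5 each; log2 difference -1.83, 95% interval -2.61 to -1.04; limma adjusted p = 0.00701) and kept its call without any 1 library, but not without experiment 3 (adjusted p = 0.0753). THBS1, thrombospondin 1, fell (log2 difference -1.3, limma adjusted p = 0.0485), and its call was lost without any 1 library other than DHA+Veh 2 (adjusted p = 0.0622 to 0.179). The syndecan SDC4 rose (log2 difference 0.63, limma adjusted p = 0.0282), a call lost without DHA+Veh 2, DHA+Veh 5, OLA+Veh 2 or OLA+Veh 5 (adjusted p = 0.0595 to 0.123). Of 29 TGF-beta and activin genes 2 were called (6.90%; median -0.21). GDF15 rose and the ligand TGFB2 fell (log2 difference -1.24, 95% interval -1.97 to -0.51; limma adjusted p = 0.0499; call lost without any 1 library other than DHA+Veh 4 and DHA+Veh 5, adjusted p = 0.0647 to 0.148), while TGFB1 did not pass (0.75 with 95% interval 0.07 to 1.43). Among mesenchymal markers the surface protein THY1 fell without overlap of the groups, at 31.6 ± 12.7 CPM in DHA+Veh and 66.3 ± 14.7 CPM in OLA+Veh (SD, n = 5 each; log2 difference -1.12, 95% interval -1.63 to -0.61; limma adjusted p = 0.0107; call lost without DHA+Veh 5 or OLA+Veh 5, adjusted p = 0.0591 to 0.067).

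Some proliferation genes fell with DHA. Of 22 tested mitosis genes 0 rose and 5 fell (22.7%, against 3.27% of all genes), and 21 had a negative difference, with a median of -0.60. Without both libraries of experiment 5, 2 of the 22 fell. TOP2A, the topoisomerase of dividing cells, had 541, 1037, 163, 38.1 and 89.7 CPM in DHA+Veh 1 to 5, against 983, 2026, 419, 199 and 479 CPM in OLA+Veh 1 to 5. Both groups were highest in experiments 1 and 2, and DHA was lower in each experiment. TOP2A differed by -1.59 log2 units (95% interval -2.08 to -1.1; limma adjusted p = 0.00029). MKI67, the Ki-67 antigen, had 166, 322, 29.7, 15.6 and 40.9 CPM in DHA+Veh 1 to 5, against 271, 443, 67.3, 67.4 and 138 CPM in OLA+Veh 1 to 5. Here too both groups were highest in experiments 1 and 2. MKI67 differed by -1.22 log2 units (95% interval -1.67 to -0.77; limma adjusted p = 0.00237), and both calls held without any 1 library or experiment. BIRC5, survivin, averaged 148 ± 47 CPM in DHA+Veh and 243 ± 56 CPM in OLA+Veh (SD, n = 5 each). BIRC5 differed by -0.74 log2 units (95% interval -1.1 to -0.37; limma adjusted p = 0.0182). The calls of BIRC5, CENPF (-0.76) and CCNA2 (-0.66) were lost without DHA+Veh 4, DHA+Veh 5 or OLA+Veh 5 (adjusted p = 0.059 to 0.082) for BIRC5, any 1 library other than DHA+Veh 1 and OLA+Veh 1 (adjusted p = 0.0532 to 0.111) for CENPF and any 1 library other than DHA+Veh 2 and OLA+Veh 2 (adjusted p = 0.0524 to 0.141) for CCNA2. Of 22 DNA replication genes 0 rose and 2 fell (9.09%, against 3.27% of all genes; median -0.41, against -0.15). CDC6, a licensing factor, averaged 30.3 ± 14.9 CPM in DHA+Veh and 52.2 ± 16.9 CPM in OLA+Veh (SD, n = 5 each). CDC6 differed by -0.85 log2 units (95% interval -1.22 to -0.47; limma adjusted p = 0.00845), and its call held without any 1 library and ended without experiment 3, 4 or 5 (adjusted p = 0.0539 to 0.0709). MCM7, a helicase subunit (-0.48, limma adjusted p = 0.0468), was not called without any 1 library other than DHA+Veh 2 (adjusted p = 0.0568 to 0.146). A further pair of S phase genes, named after their values were seen, kept their call under every alternative with the block: CLSPN, a checkpoint adaptor (log2 difference -1.5 ± 0.25, SE; limma adjusted p = 0.000653), and BARD1, the partner of BRCA1 (log2 difference -1.41 ± 0.22; limma adjusted p = 0.000406).

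Secreted hormones and receptors moved both ways. STC1, stanniocalcin 1, had 790.2, 214, 216, 248 and 1105 CPM in DHA+Veh 1 to 5, against 351, 71.9, 11.3, 52.5 and 76.1 CPM in OLA+Veh 1 to 5. DHA was higher in each experiment, and OLA+Veh 1 exceeded DHA+Veh 2, 3 and 4. STC1 differed by 2.58 log2 units (95% interval 1.75 to 3.42; limma adjusted p = 0.000406). EDN1, endothelin 1, a constrictor of stellate cells, had 1.91, 8.71, 5.15, 0.265 and 5.2 CPM in DHA+Veh 1 to 5, against 8.84, 27.7, 36.5, 4.79 and 12.3 CPM in OLA+Veh 1 to 5. DHA was lower in 5 of 5 experiments. EDN1 differed by -1.84 log2 units (95% interval -2.57 to -1.12; limma adjusted p = 0.00371). KIT, the receptor of stem cell factor, had 4.25, 14.3, 3.03, 0 and 0 CPM in DHA+Veh 1 to 5, against 11.8, 21.2, 13.6, 6.78 and 35.5 CPM in OLA+Veh 1 to 5. It was at 0 in DHA+Veh 4 and 5, where 3 reads make 0.794 and 1.95 CPM, so the fitted difference depends on the added 1 CPM. KIT differed by -2.37 log2 units (95% interval -3.26 to -1.48; limma adjusted p = 0.00283). IGFBP5, a binding protein of insulin-like growth factors, had 97.2, 419, 212, 77.3 and 80.6 CPM in DHA+Veh 1 to 5, against 215, 768, 973, 143 and 467 CPM in OLA+Veh 1 to 5. All 5 pairs were lower with DHA. IGFBP5 differed by -1.52 log2 units (95% interval -2.05 to -1.0; limma adjusted p = 0.000967). The calls of STC1, EDN1, KIT and IGFBP5 held without any 1 library or experiment. Of 11 vasoactive and hormone genes, 2 rose and 5 fell (63.6%, against 3.27% of all genes, with a median of -0.38). That share describes a list chosen with earlier results of these data known. STC2 rose (1.08) with separate groups, while RARRES2, chemerin (-2.08, separate groups), NPPB, natriuretic peptide B (-2.08), APLN, apelin (-1.78), and ADRA1B, an adrenergic receptor (-1.65), fell. None of these 5 kept its call throughout, which ended without DHA+Veh 5 or OLA+Veh 5 (adjusted p = 0.0561 to 0.0822) for STC2, DHA+Veh 5 or OLA+Veh 5 (adjusted p = 0.0621 to 0.0736) for RARRES2, any 1 library other than DHA+Veh 1 and OLA+Veh 1 (adjusted p = 0.0628 to 0.149) for NPPB, any 1 library other than DHA+Veh 1, DHA+Veh 2, DHA+Veh 3 and OLA+Veh 3 (adjusted p = 0.0554 to 0.182) for APLN and DHA+Veh 4, OLA+Veh 4 or OLA+Veh 5 (adjusted p = 0.0553 to 0.0622) for ADRA1B.

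OLFML3, a secreted olfactomedin-like protein, was the only fall called under all 29 alternatives. It had 8.08, 4.88, 6.96, 7.68 and 1.95 CPM in DHA+Veh 1 to 5, against 15, 22.1, 31.4, 27.9 and 21.9 CPM in OLA+Veh 1 to 5. All DHA+Veh libraries lay below all OLA+Veh libraries. OLFML3 differed by -1.9 log2 units (95% interval -2.45 to -1.35; limma adjusted p = 0.000146). VGLL2, a cofactor of TEAD factors, was at 0 in DHA+Veh 3, 4 and 5 and had 2.55 and 7.67 CPM in DHA+Veh 1 and 2. OLA+Veh libraries had 6.16 to 15.9 CPM (log2 difference -2.37 ± 0.44, SE; limma adjusted p = 0.00303). In DHA+Veh 3, 4 and 5, 3 reads make 0.908, 0.794 and 1.95 CPM, so the fitted difference of VGLL2 depends on the added 1 CPM. SERTAD4 averaged 17.5 ± 15.3 CPM in DHA+Veh and 56.5 ± 18.2 CPM in OLA+Veh (SD, n = 5 each). SERTAD4 differed by -2.03 log2 units (95% interval -2.68 to -1.39; limma adjusted p = 0.0004). CPA4, a carboxypeptidase with the largest fall of the called genes, averaged 12.7 ± 13.1 CPM in DHA+Veh and 59.5 ± 52.5 CPM in OLA+Veh (SD, n = 5 each). CPA4 differed by -2.42 log2 units (95% interval -3.43 to -1.41; limma adjusted p = 0.00557). The calls of VGLL2 and SERTAD4 held without any 1 library or experiment, and that of CPA4 ended without experiment 3 or 4 (adjusted p = 0.0624 to 0.0678). Large falls whose calls ended without single libraries were VSIR (-1.94; DHA+Veh 5 or OLA+Veh 4, adjusted p = 0.0503 to 0.067), ATOH8 (-1.9; DHA+Veh 5 or OLA+Veh 5, adjusted p = 0.0787 to 0.0924), the oxytocin receptor OXTR (-1.75; DHA+Veh 5 or OLA+Veh 5, adjusted p = 0.0507 to 0.0799) and U3 (-1.84; any 1 library other than DHA+Veh 2, DHA+Veh 4, OLA+Veh 2 and OLA+Veh 3, adjusted p = 0.069 to 0.141). U3 is a small nucleolar RNA with near-identical copies, so its count is uncertain. C11orf96 was a large rise (2.84, limma adjusted p = 0.00371) that ended without experiment 3 (adjusted p = 0.0546). Rises and falls kept under every alternative with the block, and named after their values were seen, included HMGA2, a chromatin protein (log2 difference 2.17 ± 0.31, SE), ODC1, ornithine decarboxylase (1.42 ± 0.25), GFPT2, of the hexosamine pathway (1.3 ± 0.24), EFEMP2, fibulin 4 (-0.97 ± 0.19), and CCDC80, a matrix protein (-1.44 ± 0.20), with limma adjusted p-values of 0.000168, 0.00169, 0.00303, 0.00379 and 9.8e-05.

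The tested genes of the ErbB receptors, through which BTC acts, and of their ligands did not pass limma on the CPM scale. Of 13 such genes listed 7 were tested and 6 were not. Of the 7, 0 were called by limma on the CPM scale or by edgeR (1 at an unadjusted limma p under 0.05, with a median of 0.17). By DESeq2 1 rose, and by limma with quantile normalization 1 rose. EGFR averaged 35.8 ± 24.1 CPM in DHA+Veh and 30.5 ± 21.7 CPM in OLA+Veh (SD, n = 5 each; log2 difference 0.17, 95% interval -0.35 to 0.69; limma adjusted p = 0.782) and ERBB2 29.4 ± 11.4 CPM in DHA+Veh and 32.6 ± 4.56 CPM in OLA+Veh (SD, n = 5 each). ERBB2 differed by -0.21 log2 units (95% interval -0.67 to 0.24; limma adjusted p = 0.67). HBEGF, a ligand of EGFR, was higher in 5 of 5 experiments without passing. HBEGF differed by 0.87 log2 units (95% interval 0.34 to 1.41; limma adjusted p = 0.0553). Of 7 stellate quiescence genes 0 were called by limma (3 at an unadjusted p under 0.05), and 1 rose by edgeR, by DESeq2 and with quantile normalization.

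Each fatty acid was also set beside Veh+Veh cells. The sample records used here give no albumin dose for Veh+Veh, and the part of the carrier was not tested. With DHA, 233 genes (1.54%) differed from Veh+Veh, 90 higher and 143 lower, and with oleic acid 0 did by limma (468 at an unadjusted p under 0.05). Both comparisons share the Veh+Veh libraries. ANGPTL4 averaged 214 ± 171 CPM in DHA+Veh, 15.2 ± 6.23 CPM in OLA+Veh and 6.28 ± 4.83 CPM in Veh+Veh (SD, n = 5 each), with a log2 difference from Veh+Veh of 4.9 for DHA (adjusted p = 8.21e-08) and 1.3 for oleic acid (95% interval 0.38 to 2.23; not called). CXCL8 averaged 164 ± 191 CPM in DHA+Veh, 6.3 ± 5.62 CPM in OLA+Veh and 7.99 ± 6.98 CPM in Veh+Veh, with log2 differences from Veh+Veh of 3.65 for DHA (limma adjusted p = 0.00218) and -0.34 for oleic acid (-1.66 to 0.97). MMP1 differed from Veh+Veh by 2.94 log2 units with DHA and 0.23 with oleic acid (-0.56 to 1.02), and KIT by -2.42 and -0.05 (-0.94 to 0.84). GDF15 differed from Veh+Veh by 1.87 with DHA and -0.62 with oleic acid (-1.21 to -0.03). Over the 135 rises the median difference from Veh+Veh was 1.12 with DHA and -0.13 with oleic acid, and over the 360 falls it was -0.79 and 0.22. These genes were chosen on the difference between the 2 fatty acids, so their medians describe them and are no test.

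The same pair of fatty acids followed by BTC gave 261 called genes (1.72%), 92 higher and 169 lower in DHA+BTC than in OLA+BTC. Of the 135 rises without BTC, 68 were also called with BTC (50.4% of those without and 73.9% of those with BTC), and of the 360 falls 69 (19.2% and 40.8%). Both comparisons come from 1 fit that shares the spread of each gene and the experiments. ANGPTL4 differed by 3.6 log2 units without BTC and 3.55 with it (95% interval 2.63 to 4.47), CXCL8 by 3.99 and 3.58 (2.27 to 4.9), MMP1 by 2.71 and 2.55 (1.76 to 3.33), and TOP2A by -1.59 and -1.08 (-1.57 to -0.59). PLIN2 and UCP2, at 0.86 and -0.68, were not called with BTC (limma adjusted p = 0.11 and 0.186). Tested directly, the difference without BTC minus that with BTC called 0 genes by limma and 0 by edgeR, with 572 at an unadjusted p under 0.05. For PLIN2 it was 0.43 (-0.38 to 1.24) log2 units, for UCP2 -0.72 (-1.47 to 0.03) and for OLFML3 -0.84 (-1.62 to -0.06) (95% intervals). The intervals of PLIN2 and UCP2 include 0 and that of OLFML3 does not, and after adjustment none of the 3 passed.

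**Figure D5:**
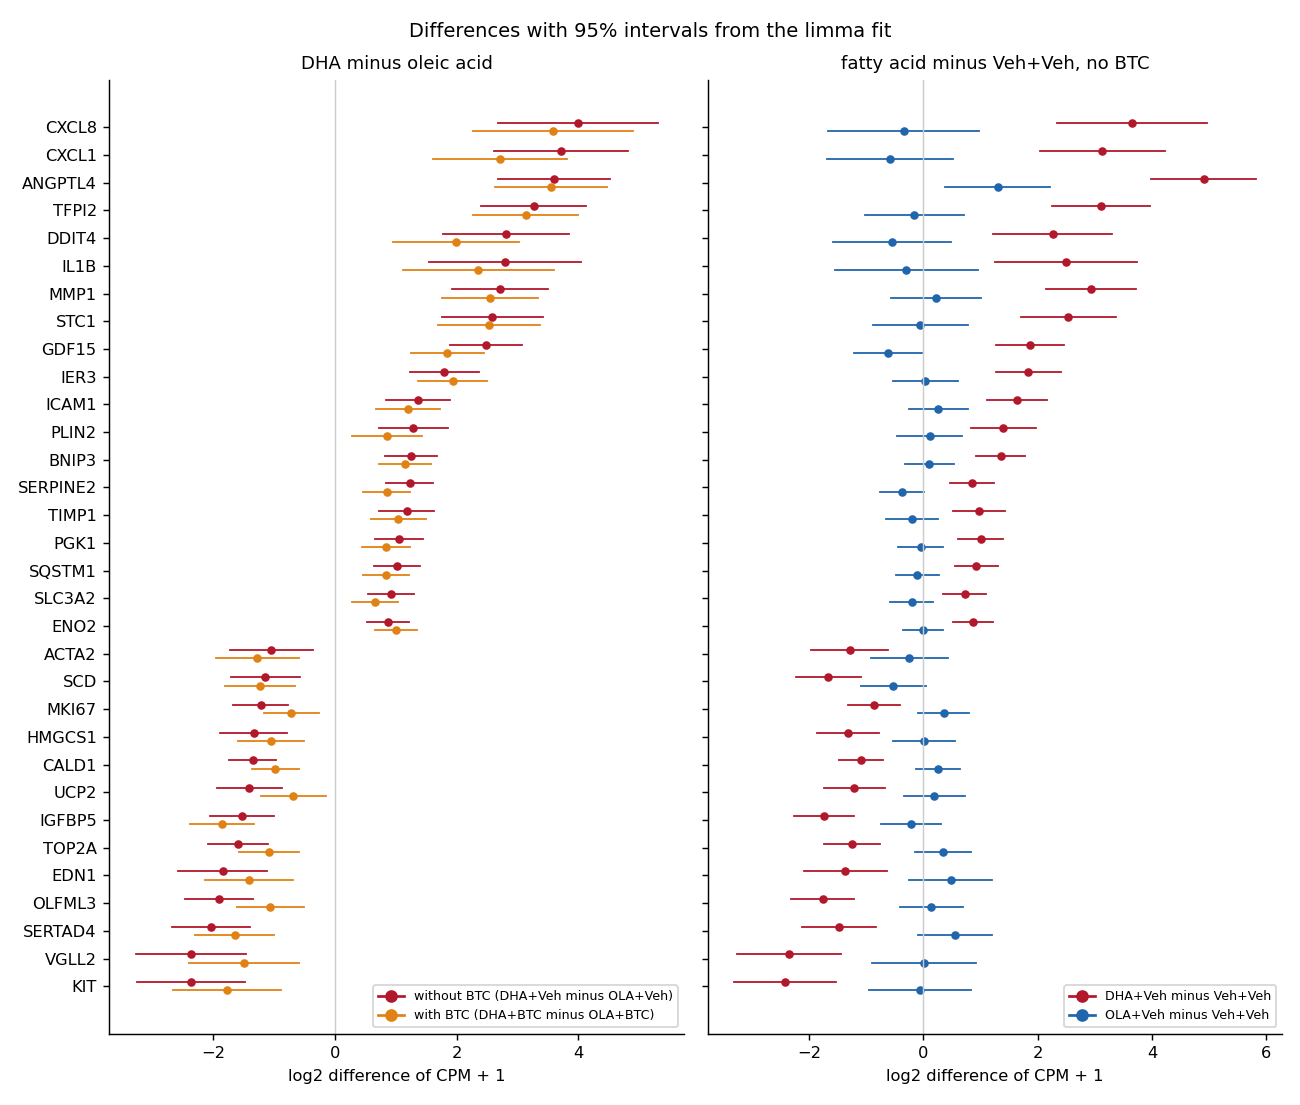
Log2 differences of CPM + 1 with 95% intervals from the limma fit for 32 genes (vertical axis). The left panel gives DHA minus oleic acid without BTC (red) and with BTC (orange), and the right panel DHA+Veh (red) and OLA+Veh (blue), each minus Veh+Veh; the oleic acid intervals include 0 for every gene shown except ANGPTL4 and GDF15, and no oleic acid difference was called.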

How the data were processed

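RNA of LX2 cells was read with a 3′ tag kit. Per the submitters' processing notes, STAR 2.5.3a was used for alignment and HTSeq 0.6.0 for counting. The sources used here do not give the genome build, the annotation or the use of strand in counting; overlapping and antisense genes cannot be told apart. The authors deposited CPM of 61597 genes in 30 libraries, each summing to 1000000. Whole reads were recovered: 100% of values lay within 0.01 of a whole number of reads.

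Genes with at least 1 CPM in at least 5 of 30 libraries (15137) were tested on log2(CPM + 1) with limma 3.58.1 (R 4.3.3, trend), with group and experiment as terms over all 30 libraries and Benjamini-Hochberg adjustment over all genes tested. The shared experiment number in the titles was used as the pair. Deviations of libraries of 1 experiment correlated in each of 75 pairs (lowest r 0.119, median 0.507), and in DHA+Veh against OLA+Veh r was 0.449 to 0.614 in experiments 1 to 4, each above the highest r with another experiment (0.285 to 0.530). In experiment 5 r was 0.145, below the highest with another experiment (0.157). Count tests by edgeR 4.0.16 and DESeq2 1.42.0 on recovered reads served as alternatives. So did other scalings, filters, pseudocounts, equal depth, library weights, and each library or experiment left out.

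The genes named are of 3 kinds. The first are the 14 largest rises and 14 largest falls among called genes that have a symbol, reach a mean of 5 CPM in DHA+Veh or OLA+Veh and share their sign in 4 or more of 5 experiments. To these were added up to 6 members of each list with the smallest p, and a fixed set of receptors, collagens and lipid genes. Others are named as chosen after their values were seen, including called list members beyond the 6 and the motifs. The members and the lists were chosen with earlier results of these data known. Gene symbols were matched for 42084 genes (68.3%). Some members of the gene lists enter the counts but are not reported here by name.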

Additional observations from a re-analysis of the deposited data

Results flagged for a closer look

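In 5 of 96 groups of 5 libraries examined (43 genes and 5 library measures), 1 library stood apart from the other 4. Its gap to the nearest exceeded 0.71 of the range. For genes, gap and range were taken on log2(CPM + 1), so those of the CPM values printed here differ. A library far above the rest in CPM, as DHA+Veh 5 for DDIT4, need not pass on that scale. Chance gives about 1 in 20 such groups. CSF3 had its highest OLA+Veh value in OLA+Veh 4, at 4.3888 CPM, with 0.2063 CPM in the next library. IL24 had 0.9975 CPM in OLA+Veh 4 and was at 0 in the other OLA+Veh libraries. IL1B had its lowest DHA+Veh value in DHA+Veh 2, at 27.8757 CPM, with 159.2278 CPM in the next. ANGPTL4 had its lowest OLA+Veh value in OLA+Veh 3, at 4.5395 CPM, with 15.6108 CPM in the next. PLIN2 was also lowest in OLA+Veh 3, at 76.7583 CPM, with 141.471 CPM in the next. The calls of ANGPTL4, PLIN2, IL1B and CSF3 held without these libraries. That of IL24 ended without OLA+Veh 4 (limma adjusted p = 0.06).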

How the results depend on the processing

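The number of genes called moved with the processing. It was 495 (135 higher and 360 lower) as reported. In all, edgeR called 325 (176 lower), a fit with no filter on low values 256 (77 higher and 179 lower), the 10 libraries alone 210 (115 lower), libraries thinned to equal depth 309 (208 lower), and the fit without both libraries of experiment 5 called 77 (31 higher and 46 lower). DESeq2 called 254 higher and quantile normalization 210 lower. The fit with no replicate block, which drops the pairing by experiment, called 2, 1 higher and 1 lower. Leaving out 1 library gave 157 to 512 genes, 54 to 138 higher and 90 to 374 lower. Leaving out all libraries of experiment 3 gave 136 (46 higher and 90 lower), of experiment 4 129 (65 and 64) and of experiment 5 129 (55 and 74). The test of the difference between conditions without and with BTC gave 0 under each alternative run for it. Of the 495 genes, 298 were also called by edgeR, 457 by DESeq2, 340 with quantile normalization, 190 with the 10 libraries alone, 276 at equal depth and 75 without both libraries of experiment 5. Over 213 named genes and all alternatives, 5256 results kept their side of the threshold, 770 lost it and 118 gained it. Estimates changed sign 27 times, in 11 genes, of which 0 were called. The cause of these moves was not tested. Depth limits genes near 0, in DHA+Veh 5 most, where 3 reads make 1.95 CPM.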
